A study of Rattus norvegicus with 10 samples.

Results

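The fibrillar collagens of the rat arterial wall were described from 7 genes: Col1a1, Col1a2, Col3a1, Col5a1, Col5a2, Col5a3 and Col11a1. Every probe set annotated to one of these symbols was taken, whatever its value, which gave 12 probe sets of the 15866 tested, or 7 of 10411 named genes. Fibrillar collagens are triple helices that are secreted as procollagens, trimmed at their ends and assembled into banded, cross-linked fibrils that carry load in the media and adventitia of an artery. Collagen I is built from chains encoded by Col1a1 and Col1a2, and collagen III from the single chain encoded by Col3a1. Collagens V and XI lie within the fibrils of the major types and limit their width, with chains from Col5a1, Col5a2 and Col5a3 and from Col11a1.

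RNA came from abdominal aorta of 2 inbred rat strains that received no treatment, BN (Brown Norway) with 5 arrays and LOU with 5 arrays. The age label of each array is 5 weeks, while the growth notes give a maximum of 18 weeks, and the extraction notes also mention thoracic aorta. Whether the arrays of a strain came from separate rats is not stated in the labels, so p-values cover array-to-array spread alone, and precision is limited by 5 arrays a strain. Values are linear signals of a probe set, taken here as scaled to a common array mean. A value is given per array in the order of the replicate numbers, whose meaning the labels do not state.

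The arrays carried the smooth muscle markers of an artery wall, and a few arrays stood apart in other cell types. All 11 measured smooth muscle markers were above background on all 10 arrays, background being the 95th percentile of the bacterial control probe sets of an array (21.2 to 49.2 in signal). Mean log2 deviations of the nerve and Schwann cell list, 10 genes, reached 2.55 on BN array 3, against −0.28 to 0.44 on the other BN arrays and −1.21 to 0.45 on LOU arrays. The macrophage and lymphocyte lists were highest on LOU array 1, at 1.11 and 1.47, and the next highest value in either list was 0.11. Adipocyte means ran from −1.07 to 0.81 in BN and from −0.78 to 0.82 in LOU. In such bulk tissue fewer cells of a type and less RNA per cell cannot be told apart. The log2 ratio of 3′ to 5′ probe sets, a measure of RNA quality, was 1.80 to 2.43 in BN and 1.95 to 2.20 in LOU for Actb (exact permutation test, two-sided, p = 0.905).

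No fibrillar collagen probe set passed the strain test over all probe sets. With limma and Benjamini-Hochberg adjustment, 0 of 12 passed at 0.05, where 0.788% of all probe sets did, 0.246% higher and 0.542% lower in BN. At an unadjusted p under 0.05 there were 2 of 12, a probe set of Col1a1 and that of Col5a3, against 13.3% of all probe sets. The log2 difference, BN minus LOU, was negative in 9 of the 12 and in 53.5% of all probe sets, with a median of −0.14 beside −0.03 over all. The strains overlapped in each of the 12, whereas 4.18% of all probe sets did not overlap. Of the 12, 10 were above background on all arrays, and both Col11a1 probe sets were not. With the dimmest 40% of probe sets left out of the test, which removes both Col11a1 probe sets, 1 of the remaining 10 passed, Col5a3, where 2.66% of those tested did, and several other settings also called it.

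**Figure D1:**
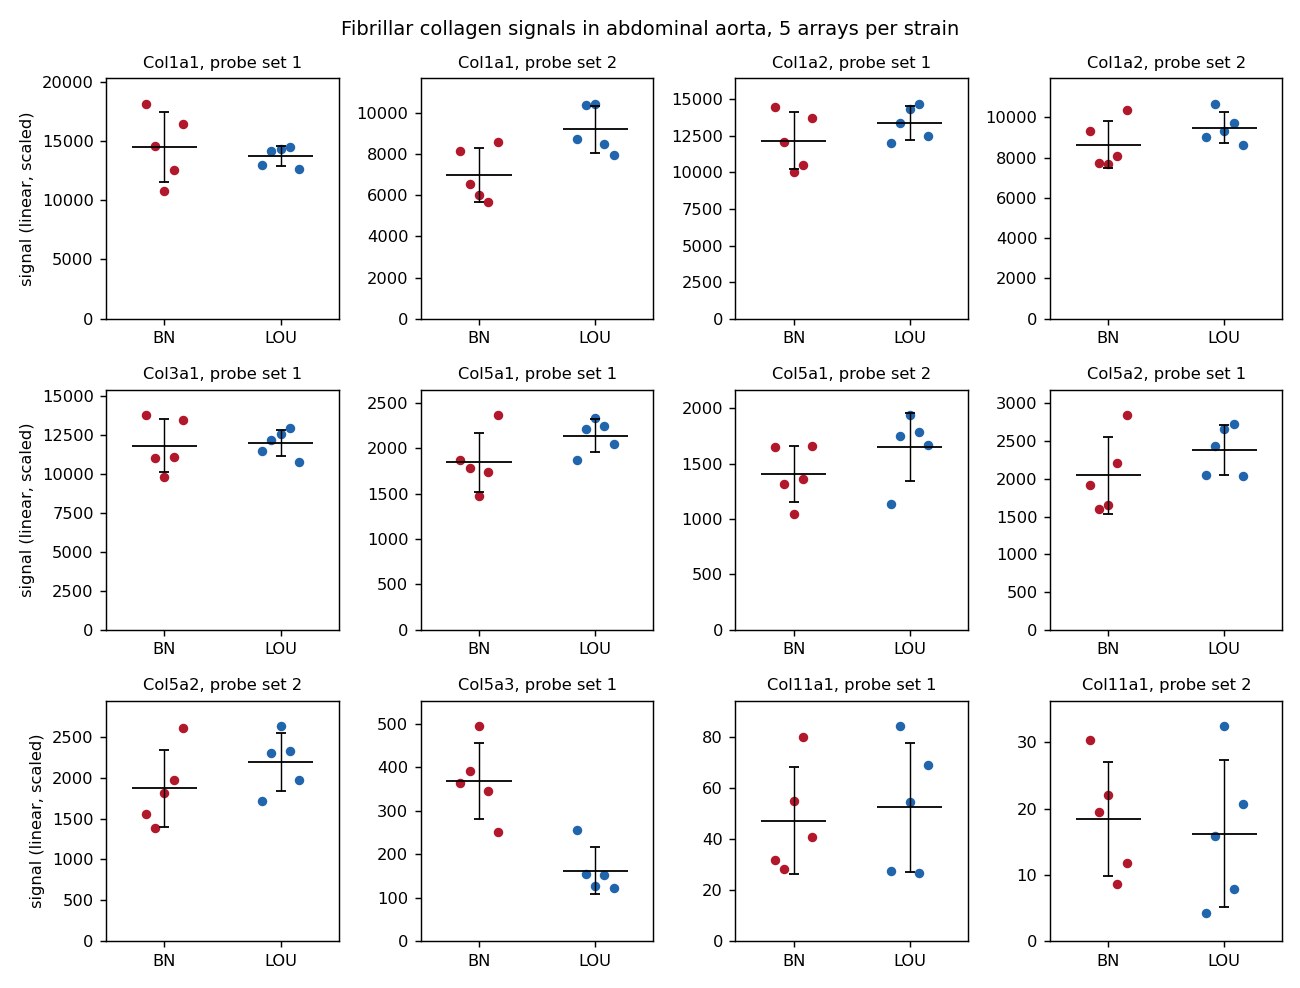
Linear scaled signal (vertical axis, starting at 0) of each of the 12 probe sets on the 5 BN arrays (red, left) and the 5 LOU arrays (blue, right), with the mean as a bar and 1 SD as the error bar. Probe set 1 is the brighter of a gene. In Col5a3, 4 of 5 BN arrays lie above all LOU arrays, and in the other panels the strains overlap more widely.

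The collagen I and III messages did not differ detectably between strains, apart from a disagreement between the 2 Col1a1 probe sets. Col1a1, the alpha 1 chain of collagen I, gave signals of 18129, 14616, 10774, 12542 and 16433 in BN, against 13015, 14149, 14305, 14507 and 12687 in LOU with its brighter probe set (1388116_at). BN arrays were both the highest and the lowest, and the LOU arrays lay between them. The means were 14499 ± 2943 in BN and 13733 ± 823 in LOU (SD, n = 5 each), a log2 difference of 0.06 with a 95% interval from −0.28 to 0.40 (limma adjusted p = 0.904). This probe set reached 63.7% to 96.0% of the highest signal on its array. The brighter Col1a2 probe set reached 53.4% to 92.0% and the Col3a1 probe set 51.2% to 82.8%.

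The other Col1a1 probe set (1370864_at) leaned the opposite way. It gave 8171, 6549, 6026, 5668 and 8590 in BN, against 8756, 10383, 10443, 8496 and 7990 in LOU. BN arrays 2, 3 and 4 lay below all LOU arrays and none lay above them. The log2 difference was −0.41 (95% interval −0.75 to −0.06), with a limma p of 0.0251 and an adjusted p of 0.294. Both Col1a1 probe sets share 1 transcript accession in the platform annotation.

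Col1a2, the alpha 2 chain of collagen I, gave 14512, 12100, 10053, 10520 and 13696 in BN, against 12025, 13408, 14343, 14674 and 12498 in LOU (1370155_at). BN arrays 3 and 4 were the lowest of all and the remaining arrays intermixed. The log2 difference was −0.15 (95% interval −0.45 to 0.16, limma adjusted p = 0.682), and the dimmer probe set (1387854_at) gave −0.14 (−0.42 to 0.14, adjusted p = 0.671). Col3a1, the only chain of collagen III, had 13781, 11032, 9818, 11077 and 13470 in BN, against 11484, 12207, 12577, 12948 and 10805 in LOU (1370959_at). BN arrays 1 and 5 were the highest and BN array 3 the lowest, with LOU in between. Mean Col3a1 signals were 11835 ± 1714 in BN and 12004 ± 861 in LOU (n = 5 each), a BN over LOU ratio of 0.98 with a 95% interval from 0.803 to 1.20 (limma adjusted p = 0.947). The signs of Col3a1 and of the brighter Col1a1 probe set turned under other settings, Col3a1 to 0.02 with median centring and Col1a1 to −0.07 with quantile normalization.

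The main collagen V chains had negative differences of similar size in all of their probe sets, and none passed the test. Col5a1, the alpha 1 chain found in most collagen V molecules, gave 1873, 1783, 1471, 1744 and 2364 in BN, against 1875, 2210, 2330, 2241 and 2045 in LOU (1376099_at). Of the BN arrays 4 were below all LOU arrays and BN array 5 was above all of them. The log2 difference was −0.23 (95% interval −0.54 to 0.09, limma adjusted p = 0.539), and the other probe set (1369955_at) gave −0.23 (adjusted p = 0.634). Col5a2, the alpha 2 chain, gave 1922, 1602, 1651, 2207 and 2841 in BN, against 2047, 2441, 2658, 2730 and 2041 in LOU (1370895_at). BN array 5 was again the highest of the 10, and BN arrays 1, 2 and 3 were below all LOU arrays. Its 2 probe sets differed by −0.24 and −0.25 (limma adjusted p = 0.606 and 0.618).

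Col5a3, the less common alpha 3 chain of collagen V, stood apart from the other chains. Its signals (1368347_at) were 364, 392, 495, 346 and 250 in BN, against 255, 154, 126, 152 and 122 in LOU. BN arrays 1 to 4 lay above all LOU arrays, and the strains met at BN array 5 and LOU array 1. The means were 369 ± 88.1 in BN and 162 ± 54.2 in LOU (n = 5 each), 2.32-fold with a 95% interval from 1.60 to 3.35. The log2 difference was 1.21 (SE 0.24), with a limma p of 0.000454 and an adjusted p of 0.0528 over 15866 probe sets. Adjusted over 10411 genes, with 1 probe set each, it was 0.0482, where 0.864% of genes passed, 0.279% higher and 0.586% lower in BN. Of 24 settings run, 12 put it under 0.05, with log2 values of 0.89 to 1.60 and adjusted p-values of 0.00654 to 0.208. It passed without BN array 5 (0.0381), without LOU array 1 (0.0211) and without BN array 3 and LOU array 1 together (0.0302), and it did not pass in the other 8 fits that left out 1 array. Only 1 probe set is annotated to Col5a3, so no second probe set could be set beside it.

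Markers of some other cell types were also higher on average in BN. As background, Schwann cells of rat nerve are known to secrete the Col5a3 chain. All 10 measured nerve and Schwann cell markers had a higher mean in BN, with a median log2 difference of 1.00 and the highest list mean on BN array 3. Their summed signals were 3081 to 15851 in BN and 2643 to 4126 in LOU, and 6 of the 10 were above background on all arrays. The neuron genes Th, Prph, Stmn2 and Dbh owed their higher BN means to BN array 3. There Th gave 2608, against 84.2 to 131 on the other BN arrays and 42.6 to 366 in LOU. Of the 10 markers, 1 passed limma's test, where 0.720% of genes did by their brightest probe set. It was Mbp, the myelin basic protein gene (log2 1.73, adjusted p = 0.0460), which passed in 1 of 10 fits without 1 array, that without BN array 5 (adjusted p up to 0.124), and its other probe set gave 1.13 (adjusted p = 0.129). The Schwann cell factor Sox10 was above background on 4 BN and 0 LOU arrays. Within strains Col5a3 and the list mean had r = 0.71 (exact permutation, adjusted p = 0.106 over 34 relations, rho = 0.41), and r = 0.11 without BN array 3 and LOU array 1. With that list mean as a covariate, a setting chosen after seeing the data, the Col5a3 difference was 0.89 (log2) with a limma adjusted p of 0.208. The list mean was itself higher in BN by 1.10 (log2), so this fit cannot separate it from strain. The part of nerve and Schwann cells in the Col5a3 difference was not tested. All 7 brown adipocyte markers were also higher on average in BN (0 passing), but only 3 of them were above background on all arrays. The list median of 0.97 is the value of Ppargc1a, which was above background on 2 BN and 0 LOU arrays. Summed signals of the list were 2080 to 19624 in BN and 1321 to 11295 in LOU. The part of brown adipocytes in the Col5a3 difference was not tested. Of the general adipocyte list 6 of 9 were higher in BN, and with its mean as a covariate the Col5a3 difference was 1.17 (limma adjusted p = 0.0365).

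Col11a1, the alpha 1 chain of collagen XI, which is best known from cartilage, was near background. Its brighter probe set (1384211_at) gave 31.8, 28.4, 54.9, 80.0 and 40.8 in BN, against 27.6, 84.2, 54.5, 26.6 and 69.2 in LOU, with 3 BN and 4 LOU arrays above background. Those values intermixed fully (log2 −0.11, 95% interval −0.99 to 0.78, limma adjusted p = 0.938). The other probe set (1384931_at) was above background on 0 of 10 arrays, so no difference is given for it. Of the fibrillar collagens outside the 7 genes, Col2a1 of cartilage had 73.5 ± 16.8 in BN and 59.7 ± 12.1 in LOU (log2 0.30, limma adjusted p = 0.566). Col11a2 differed by −0.43 (adjusted p = 0.725), with 1 BN and 3 LOU arrays above background. None of these 3 measured genes passed, the third being Col27a1.

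**Figure D2:**
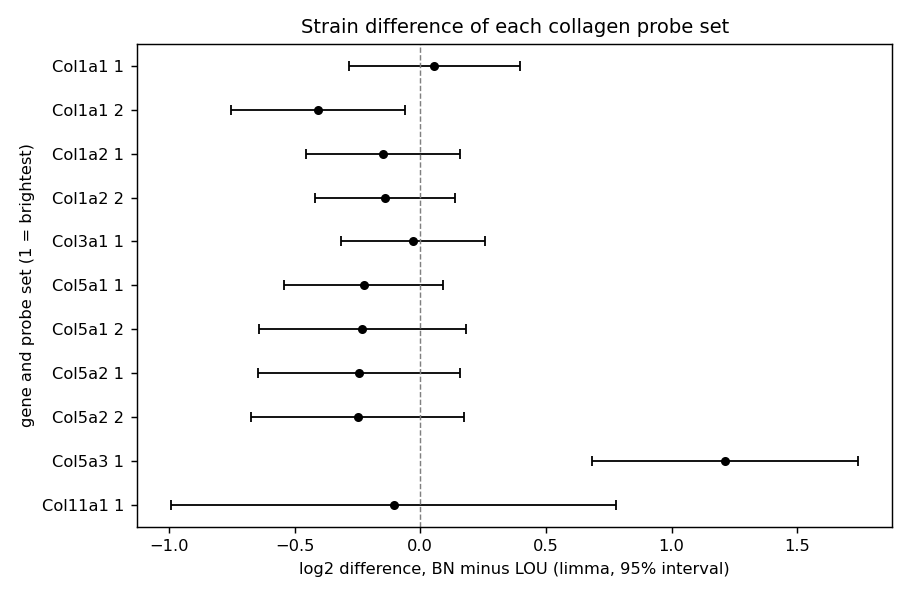
Log2 difference, BN minus LOU, of each probe set (points) with limma's 95% interval (bars), with 0 marked by the dashed line. The dimmer Col11a1 probe set, not above background on any array, is left out. The interval lies above 0 for Col5a3 (0.68 to 1.74) and below 0 for the dimmer Col1a1 probe set (−0.75 to −0.06), and it includes 0 for the other 9.

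Sequence from upstream of the annotated gene start is shown for 3 chains, one for each pattern: Col1a2 of the collagen I and III group, Col5a2 of the main collagen V chains, and Col5a3. The sequences are from a RefSeq promoter table (GRCr8), in which 5 of the 7 genes were matched, and each reads 5′ to 3′ on the strand of the gene. Capitals mark the CCAAT motif, the TATAAA motif and the GGGCGG motif, searched on both strands. The Col1a2 sequence stops shortly after its TATA box, and bases inside an annotated gene, which for Col5a1 took up the whole window, were left out.
Col1a2, chr4:33518307-33518411, plus strand: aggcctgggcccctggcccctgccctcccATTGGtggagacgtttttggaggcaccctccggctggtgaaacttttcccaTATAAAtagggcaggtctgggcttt
Col5a2, chr9:55090152-55090401, minus strand: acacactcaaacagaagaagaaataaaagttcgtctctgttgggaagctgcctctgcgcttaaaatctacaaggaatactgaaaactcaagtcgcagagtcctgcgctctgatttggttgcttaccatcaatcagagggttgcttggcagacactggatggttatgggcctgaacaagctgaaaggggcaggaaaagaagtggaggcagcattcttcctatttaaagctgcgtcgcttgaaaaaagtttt
Col5a3, chr8:27626003-27626198, minus strand: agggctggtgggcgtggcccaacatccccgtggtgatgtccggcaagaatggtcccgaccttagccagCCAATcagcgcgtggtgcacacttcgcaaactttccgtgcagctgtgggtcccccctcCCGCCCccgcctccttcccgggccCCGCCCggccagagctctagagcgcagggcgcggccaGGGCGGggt
The Col1a2 window held 1 CCAAT on the opposite strand (ATTGG) and 1 TATAAA. The Col5a3 window held 1 CCAAT and 3 GGGCGG and no TATAAA, and the Col5a2 window held none of the 3 motifs. Of 33469 rat promoters, 34.0% held CCAAT, 12.9% TATAAA and 30.5% GGGCGG in 250 bases, a length that the Col1a2 and Col5a3 windows, at 105 and 196 bases, do not reach. A match is a description of these letters and not a bound site.

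The 2 Col1a1 probe sets disagreed on the strain difference, and no such difference was detected for the pairs of the other genes. The log2 ratio of the brighter over the dimmer Col1a1 probe set was 1.15, 1.16, 0.84, 1.15 and 0.94 in BN, against 0.57, 0.45, 0.45, 0.77 and 0.67 in LOU. The strains did not overlap. The means were 1.05 ± 0.15 in BN and 0.58 ± 0.14 in LOU (n = 5 each), a difference of 0.46, with an exact two-sided permutation p of 0.00794, the smallest that 5 against 5 can give, and 0.0397 adjusted over 5 genes. Of 933 genes with 2 probe sets above background on all arrays, 4.50% had ratios that did not overlap between strains, and in 12.2% the ratio differed by at least as much as in Col1a1. The call was lost without LOU array 1, 2 or 3 (adjusted p = 0.0794 by the same exact test). Without BN array 3 and LOU array 1 together the adjusted p was 0.143. With so few arrays that is the lowest that 1 gene alone among the 5 can reach, so that fit could not have passed.

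For Col1a2, Col5a1 and Col5a2 the strain difference of the probe set ratio was −0.01, 0.00 and 0.01, each far inside the spread between arrays (exact p = 0.952, 0.960 and 0.968). The Col11a1 ratio counted among the 5 in the adjustment, but 1 of its probe sets was not above background on any array, so neither its difference nor its correlation is given. Array by array within a strain, the 2 probe sets of a gene followed each other with Pearson r = 0.79 for Col1a1 and 0.71 for Col1a2 over 10 arrays (exact permutation within strains, adjusted p = 0.0422 and 0.0845), and Spearman rho was 0.82 and 0.79 (adjusted p = 0.0385 for each). With 2 arrays left out, those farthest from the median, r was 0.84 and 0.64. For Col5a1 and Col5a2 r was 0.84 and 0.89 (adjusted p = 0.00104 and 0.00885) and rho 0.92 and 0.85, with r of 0.93 and 0.73 without 2 arrays.

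**Figure D3:**
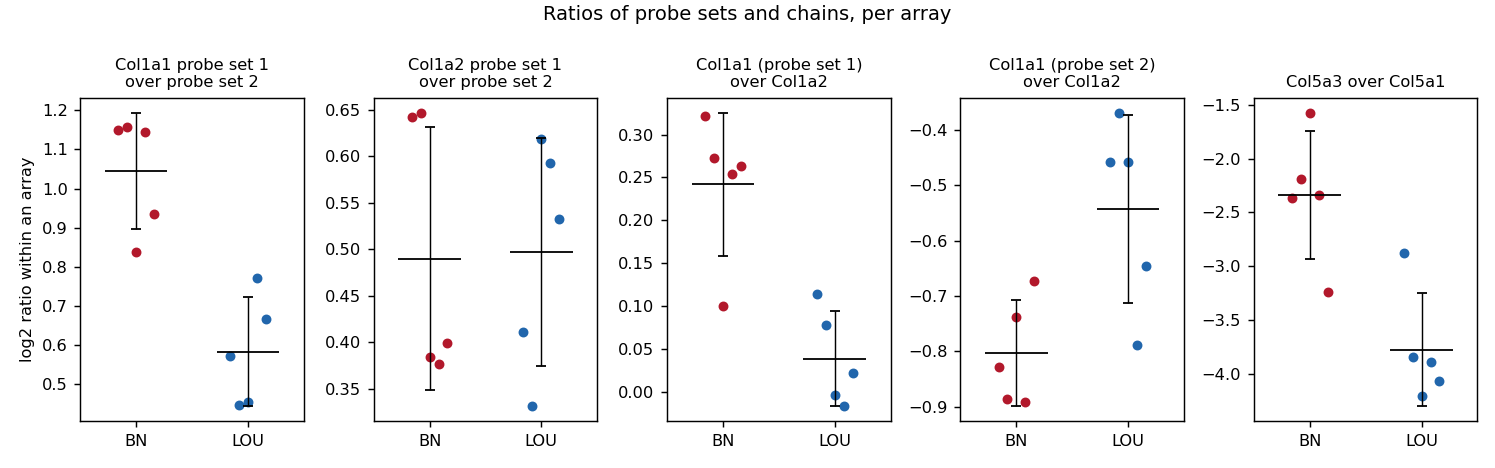
Log2 ratio within each array (vertical axis, a separate range in each panel) for BN (red, left) and LOU (blue, right), with the mean and 1 SD. The Col1a1 probe set ratio does not overlap between strains (0.84 to 1.16 in BN, 0.45 to 0.77 in LOU), that of Col1a2 does, and the Col1a1 over Col1a2 ratio is higher in BN with 1 Col1a1 probe set and lower with the other.

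The balance between chains was compared through the log2 ratio of 2 genes on the same array, over 21 pairs of the 7 genes. Probe sets differ in brightness for reasons of their design, so the size of a ratio says nothing, and the comparison rests on its strain difference. With each gene read from its brighter probe set, 7 of 21 ratios passed an exact permutation test after adjustment over the 21 (9 at an unadjusted p under 0.05), and each of the 7 had an adjusted p of 0.0476. Of these, 5 had Col5a3 in them and so share its values. Col5a3 over Col5a1 was −2.36, −2.18, −1.57, −2.33 and −3.24 in BN, against −2.88, −3.84, −4.21, −3.89 and −4.07 in LOU. BN array 5 lay below LOU array 1, and the other BN arrays lay above all LOU arrays. The difference was 1.44, which is 2.71-fold. Col5a3 over Col5a2 differed by 1.46, over Col1a2 by 1.36, over Col3a1 by 1.24 and over Col1a1 by 1.16.

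Between the other chains the differences were small. Col5a1 over Col5a2 was −0.13 ± 0.20 in BN and −0.15 ± 0.10 in LOU (difference 0.02, exact permutation p = 0.889). Col1a2 over Col3a1 was 0.04 ± 0.08 in BN and 0.16 ± 0.06 in LOU (difference −0.12, exact p = 0.0317, adjusted p = 0.0741), and Col3a1 over Col5a1 differed by 0.20 (adjusted p = 0.0741). The remaining 2 called ratios were Col1a1 over Col1a2, 0.24 ± 0.08 in BN and 0.04 ± 0.06 in LOU, and Col1a1 over Col5a1, 2.97 ± 0.19 in BN and 2.68 ± 0.07 in LOU. Read from the other Col1a1 probe set, an alternative chosen after seeing the data, these differed by −0.26 (adjusted p = 0.0741) and −0.18 (0.212), the opposite direction. The balance of the collagen I chains between the strains therefore depended on the Col1a1 probe set.

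The Col5a3 ratios passed narrowly. By exact permutation, the unadjusted p of each called Col5a3 ratio was 0.0159 with either Col1a1 probe set. Their adjusted p also depends on how many other ratios have p-values as small, here the called Col1a1 ratios without Col5a3. Under quantile normalization, with a gene's probe sets averaged, or with the other Col1a1 probe set, their adjusted p was 0.0556 and 0 of 21 ratios passed, while their differences were 1.24 to 1.62 (log2). No ratio passed in 8 of the 10 fits that left out 1 array, those without any BN array but the fifth or any LOU array but the first, and 8 of 21 at most passed when 1 array was left out.

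Within each strain, the collagen I and III messages went up and down together from array to array. Deviations of log2 signal from the strain mean gave Pearson r = 0.95 for Col1a1 with Col1a2, 0.93 for Col1a1 with Col3a1 and 0.93 for Col1a2 with Col3a1 over 10 arrays (exact permutation within strains, adjusted over 21 pairs, p = 0.00510, 0.00510 and 0.0151). Spearman rho was 0.99, 0.94 and 0.90 (adjusted p = 0.0102, 0.0153 and 0.0257), and with those 2 arrays left out r was 0.95, 0.86 and 0.86. Among 7369 other genes above background on all arrays, Col1a2 had the highest r with Col1a1 and Col3a1 the fifth highest.

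Col5a1 joined this group in part. Its r was 0.80 with Col1a2 (adjusted p = 0.0327, rho = 0.85, adjusted p = 0.0165, r = 0.89 without 2 arrays, exact permutation) and 0.81 with Col3a1 (adjusted p = 0.0327, rho = 0.76, adjusted p = 0.0666, r = 0.89 without 2). With Col5a2, its partner chain, r was 0.84 (adjusted p = 0.0327, rho = 0.75, adjusted p = 0.0696, r = 0.63 without 2). Col5a2 and Col3a1, neighbouring genes on chromosome 9, had r = 0.69 (adjusted p = 0.143, rho = 0.73, r = 0.88 without 2). In all, 7 of 21 pairs passed by r, 5 by rho and 4 by both.

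Col5a3 went the other way. Its r with Col5a1 was −0.80 (exact permutation, adjusted p = 0.0327), with rho = −0.64 (adjusted p = 0.144) and r = −0.67 without 2 arrays. The r with Col5a2 was −0.66 (adjusted p = 0.109) and with the collagen I and III genes −0.44 to −0.53, none of which passed. Without BN array 3 and LOU array 1 the Col5a1 relation was −0.68 (adjusted p = 0.433). Without single arrays it was −0.91 to −0.72, and its call held only without BN array 1 or LOU array 5. In LOU it leaned on array 1, with the lowest Col5a1 (1875) and the highest Col5a3 (255) of that strain. Among the other LOU arrays, Col5a3 fell from 154 to 126 as Col5a1 rose over arrays 2, 4 and 3. Array 5 broke this order, with the lowest of both (Col5a1 2045, Col5a3 122).

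These relations depended on the scaling of the arrays. Quantile normalization gives every array the same set of values, so that the strongest probe sets can differ only by rank, and there 0 of 21 pairs passed and the collagen I and III pairs fell to r = 0.50, 0.51 and 0.69. The highest signal on an array was 15993 to 22220 in BN and 14734 to 19301 in LOU (exact permutation p = 0.0317), and its part in the co-variation was not tested. With median centring the 3 values were 0.96, 0.94 and 0.94. With the other Col1a1 probe set r was 0.79 with Col1a2 and 0.80 with Col3a1 (adjusted p = 0.0778 each by exact permutation). Leaving out 1 array gave 2 to 9 called pairs, with 2 without BN array 3 or LOU array 2, 3 without LOU array 1, 3 or 4, and 4 without BN array 2, 4 or 5. The relations of Col1a1 with Col1a2 and with Col3a1 passed in all 10 of these, and that of Col1a2 with Col3a1 in all but those without BN array 3 or LOU array 2 (adjusted p = 0.0563).

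**Figure D4:**
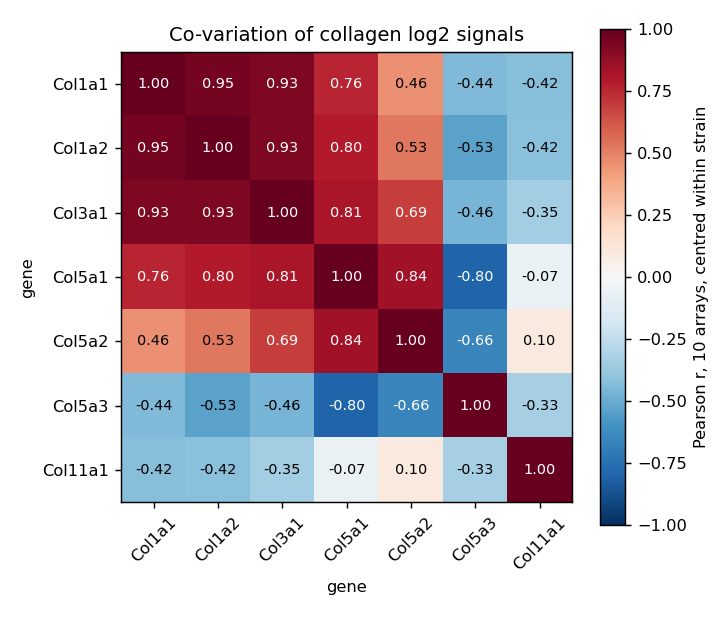
Pearson r of log2 signals between the 7 genes over 10 arrays after centring within strain (colour scale from −1 to 1, value in each cell). The block of Col1a1, Col1a2 and Col3a1 has r from 0.93 to 0.95, Col5a1 and Col5a2 share 0.84, and Col5a3 is negative with every other gene.

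Cell type markers were set against the collagens in the same way. The mean of Col1a1, Col1a2 and Col3a1 followed none of the 10 cell type lists after adjustment (0 of 10 by exact permutation, 1 at an unadjusted p under 0.05). That one was the nerve and Schwann cell list, with r = −0.74 (adjusted p = 0.184, rho = −0.64) and −0.43 without BN array 3 and LOU array 1. Endothelial markers gave r = 0.65 (adjusted p = 0.222, rho = 0.50, r = 0.59 without 2 arrays), smooth muscle markers 0.60 (adjusted p = 0.222, rho = 0.61, r = 0.49 without 2), and fibroblast markers 0.31 (adjusted p = 0.366, rho = 0.44, r = 0.39 without 2). Of 14 measured markers of fibroblasts, the main collagen-making cells of the adventitia, 11 were lower on average in BN (median −0.41, 0 passing limma's test), with summed signals of 9593 to 10842 in BN and 9001 to 15959 in LOU. At an unadjusted limma p under 0.05 there were 7 of the 14, against 13.3% of all probe sets, and of these Gsn was higher in BN. Fibroblast list means were −0.23 to −0.12 in BN and −0.12 to 0.58 in LOU, with a slight overlap.

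Col5a1 and Col5a3 were compared with the 10 cell type and 7 pathway lists after the data were seen, 34 relations in all, of which 7 passed by r and 2 by rho. Col5a1 followed collagen modification and folding genes, r = 0.90 (exact permutation, adjusted p = 0.00826, rho = 0.90, adjusted p = 0.0413, r = 0.86 without 2 arrays), and with procollagen cleavage and cross-linking genes, r = 0.88 (adjusted p = 0.00826, rho = 0.90, adjusted p = 0.0413, r = 0.77 without 2). Its r was 0.87 with fibril surface genes (adjusted p = 0.0338, rho = 0.84, r = 0.63 without 2) and 0.81 with smooth muscle markers (adjusted p = 0.0472, rho = 0.72, r = 0.44 without 2).

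Col5a3 was negative with all 4 of these lists, and 3 of the relations passed. Its r was −0.87 with modification and folding genes (exact permutation, adjusted p = 0.0472, rho = −0.73, adjusted p = 0.127) and stayed at −0.85 without 2 arrays. With smooth muscle markers it was −0.84 and with cleavage and cross-linking genes −0.83 (adjusted p = 0.0472 each, rho = −0.83 and −0.78). Those 2 relations rest on BN array 5 and LOU array 1, without which r was −0.38 and −0.34. With fibril surface genes r was −0.76 (adjusted p = 0.0708, −0.15 without those arrays) and with TGF-beta input genes −0.78 (adjusted p = 0.0771, −0.88 without BN array 3 and LOU array 5), and neither passed. Smooth muscle list means were −0.10 to 0.48 in BN and −0.47 to 0.16 in LOU, with summed signals of 58147 to 85862 in BN and 49534 to 71390 in LOU and 0 of 11 markers past the test. By that test 0.720% of genes passed. Of the 11, 10 were higher on average in BN (median 0.22), and 3 had an unadjusted limma p under 0.05, against 13.3% of all probe sets. With the smooth muscle mean as a covariate the Col5a3 difference was 1.60 (limma adjusted p = 0.00654).

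**Figure D5:**
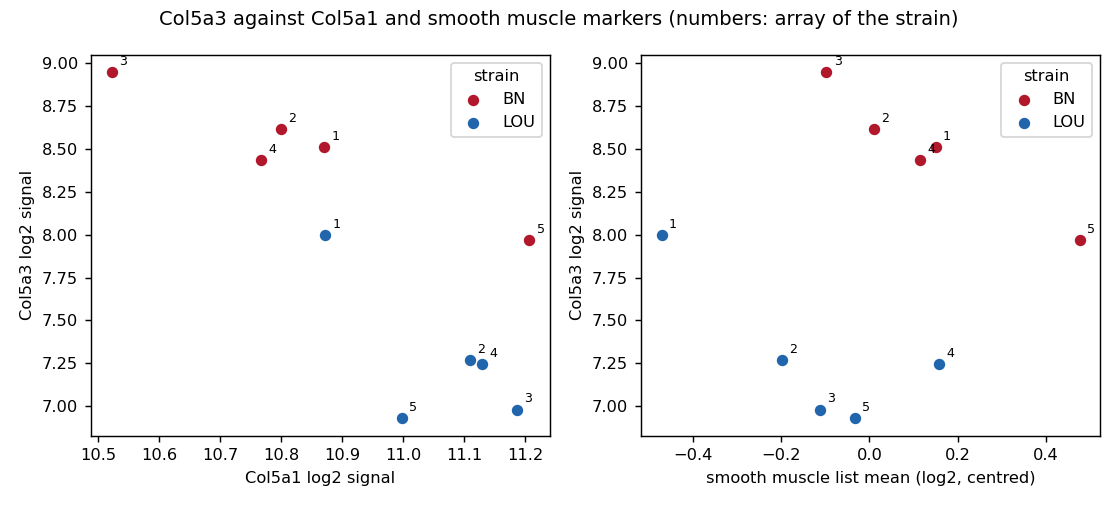
Col5a3 log2 signal (vertical axes) against Col5a1 log2 signal (left) and the smooth muscle list mean (right), for BN (red) and LOU (blue), with the array number beside each point. The plotted values are not centred within strains. After such centring r is −0.80 with Col5a1 and −0.84 with the smooth muscle mean, the latter −0.38 without BN array 5 and LOU array 1. In LOU, array 1 has the lowest Col5a1 and the highest Col5a3. Among the other LOU arrays, Col5a3 falls as Col5a1 rises over arrays 2, 4 and 3, and array 5 is lowest in both. BN array 5 and LOU array 1 lie at the ends of the smooth muscle axis.

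By within-strain likeness, the genes most like the mean of Col1a1, Col1a2 and Col3a1 among 7364 genes were Inppl1 (r = 0.95), Ints15 (0.94), Arpc4 (0.93), Ryk (0.92), Slc35f6 (0.91), Mrrf, Cap1, Bmpr1a and Spop (0.89 each) and Ing3 (0.88). Those most like Col5a3 were Tmem50b and Tex2 (0.95 each) and Pla2g15, Higd2a and Atp13a2 (0.94 each). None of the 15 passed the strain test (limma adjusted p from 0.242 to 0.998). They were picked as the highest of many values over 10 arrays, so these r are a description.

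Genes that make and finish collagen mostly had negative differences, and few passed the test. Each gene was read from its brightest probe set, with p-values adjusted over all 15866 probe sets, and by that rule 0.720% of genes passed, 0.480% lower and 0.240% higher in BN. Of 16 measured genes of collagen modification and folding, 1 was lower in BN, 0 were higher, and the median was −0.24, with 12 negative. That gene was P4ha2, a catalytic subunit of collagen prolyl 4-hydroxylase, at 335, 290, 363, 353 and 320 in BN, against 536, 624, 642, 797 and 532 in LOU. The strains did not overlap, and P4ha2 fell by 0.90 on the log2 scale (SE 0.14, limma adjusted p = 0.0175). The call was lost without BN array 2, LOU array 2 or LOU array 3 (adjusted p up to 0.0614), and a dimmer P4ha2 probe set gave 0.06 (adjusted p = 0.928).

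Of 5 measured genes of procollagen cleavage and cross-linking none passed (median −0.26). Furin, a proprotein convertase, had 297 ± 51.6 in BN and 200 ± 14.7 in LOU (log2 0.55, limma adjusted p = 0.123), and the cross-linking enzyme Loxl1 differed by −0.28 (adjusted p = 0.517). Of 17 genes of the fibril surface, 1 was lower in BN (median −0.15, 12 negative). It was osteoglycin (Ogn), a small leucine-rich proteoglycan, at 1596, 1028, 1702, 2019 and 2581 in BN, against 3811, 4975, 5365, 5957 and 4779 in LOU. Every LOU array exceeded every BN array, and Ogn fell by 1.53 (limma adjusted p = 0.0171). The call was lost without LOU array 2, 3 or 4 (adjusted p up to 0.0599). Other Ogn probe sets gave −1.59 (adjusted p = 0.0460), 0.20 and −0.27.

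Among 5 measured collagen receptors, Itga1, the alpha 1 integrin subunit that binds collagens, was lower in BN. It had 154, 111, 80.2, 99.9 and 94.3 in BN, against 207, 344, 376, 474 and 317 in LOU. No BN array reached the lowest LOU array, and Itga1 fell by 1.66 (SE 0.24, limma adjusted p = 0.0131), a call that held in all 10 fits without 1 array. The discoidin domain receptor Ddr2 differed by −0.23 (adjusted p = 0.575), and the list median was −0.13.

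Neither collagen breakdown nor TGF-beta input genes passed (0 of 11 and 0 of 16 by limma, where 0.720% of genes did). At an unadjusted limma p under 0.05 there were 4 of each, against 13.3% of all probe sets. The gelatinase gene Mmp9 had 9.06 ± 4.29 in BN and 25.2 ± 4.06 in LOU (adjusted p = 0.0866), but only 1 LOU and 0 BN arrays were above background, so no fold is given. The protease inhibitor Timp1 differed by −0.43 (adjusted p = 0.322). Tgfb1, a growth factor that raises collagen synthesis, had 132 ± 20.1 in BN and 197 ± 8.79 in LOU (log2 −0.59, limma adjusted p = 0.0730), and its receptor gene Tgfbr1 differed by −0.60 (adjusted p = 0.165). The medians of these lists were −0.16 and −0.12.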

How the data were processed

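The deposited table holds 1 linear intensity for each probe set and array, with a 2% trimmed mean of about 200 on every array. RMA is the tool named, with no version, per the submitters' processing notes, and the deposited intensity values do not have the log2 scale RMA gives. They were taken as scaled signals and log2(signal) was computed, with 4 values of 0 set to 0.1. Scaling to a mean leaves array distributions unequal.

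Strain differences (BN minus LOU) were fitted with limma 3.58.1 in R 4.3.3 (lmFit, eBayes, strain only) over 15866 probe sets, 57 controls being excluded, and adjusted by Benjamini-Hochberg. Symbols came from the platform annotation updated through RefSeq (GRCr8): 12783 probe sets had 1 symbol, 312 several and 2771 none. Ratios used exact permutation over 252 splits and correlations all 14400 permutations within strains, in Python 3.11.15 with numpy 2.4.6. All tests are two-sided. Scripts were tested on simulated data. Arrays give no counts, so signal over background sets the precision.

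The members and lists were chosen with earlier results of these data known. Named genes are every member probe set, up to 4 called genes of each pathway list (otherwise the 2 with the smallest p), and the genes most like the collagen I and III mean and Col5a3. Alternatives were other scalings, a pseudocount of 16, filters, a variance trend, array weights, the replicate block and each array left out, with covariates, 2 arrays left out and the other Col1a1 probe set added after seeing the data.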

Additional observations from a re-analysis of the deposited data

Results flagged for a closer look

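Of 34 sets of 5 arrays examined, 2 held an array far from the others by Dixon's test, which chance does in about 1 set in 20. In the dimmer Col5a1 probe set (1369955_at), LOU array 1 was lowest, at a signal of 1135 against 1666 to 1938 on the other LOU arrays, a gap of 0.718 of the range of the strain. In the log2 ratio of the Col5a1 probe sets, the same array was highest, at 0.72 against 0.27 to 0.34, a gap of 0.841. The brighter Col5a1 probe set had 1875 on that array, also the lowest of LOU. The macrophage and lymphocyte lists were highest on LOU array 1, and their part in these values was not tested.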

How the results depend on the processing

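The count of called collagen probe sets was 1, in place of 0, with median centring, a pseudocount of 16, the dimmest 40% left out, the variance trend, array weights, 1 probe set per gene, averaged probe sets, the adipocyte and smooth muscle covariates and without BN array 3 and LOU array 1, and 0 to 1 without single arrays. It was 0 with quantile normalization and with the nerve and Schwann cell covariate, under which signs turned for Col1a2 1370155_at (0.00764), Col3a1 (0.11) and Col5a1 1369955_at (0.055). Among small differences, signs turned for Col3a1 (0.021 with median centring and 0.020 without BN array 3 and LOU array 1), Col1a1 (−0.068 quantile, −0.18 averaged, −0.078 smooth muscle covariate), Col11a1 (0.14 averaged) and the Col5a1 probe set ratio (−0.00526, quantile). Without single arrays, log2 values ran from −0.031 to 0.16 for Col1a1 1388116_at, −0.087 to 0.035 for Col3a1, −0.32 to 0.10 for Col11a1 1384211_at, −0.049 to 0.023, −0.026 to 0.089 and −0.036 to 0.073 for the probe set ratios of Col1a2, Col5a1 and Col5a2, and −0.054 to 0.070 for Col5a1 over Col5a2. The r of the adipocyte list with the collagen I and III mean ran from −0.47 to 0.10.

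The call within a gene numbered 0 to 1 without single arrays and 0 without BN array 3 and LOU array 1. Called chain ratios numbered 0 to 8 without single arrays and 0 with quantile normalization, the averaged, those 2 arrays left out or the other Col1a1 probe set. Col1a1 over Col1a2 turned to −0.032 (averaged) and −0.26 (other probe set), Col1a1 over Col3a1 to −0.15 and −0.38, and Col1a1 over Col5a1 to −0.18 (other probe set). Called correlations numbered 2 to 9 without single arrays, 3 without those 2 arrays and 0 with quantile normalization. Cell type lists gave 0 under every setting run. With those 2 arrays left out the smallest exact p is higher by construction, so a lone call within a gene, or a few called ratios, could not pass. The cause of the other changes was not tested.

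Replicate numbers appear in both strains, but same-numbered arrays did not deviate together over all probe sets (r from −0.045 to 0.015 over 5 pairs, 0 matched best by their own number). Such a check cannot exclude a shared factor that moves only some probe sets. With a replicate block 23 probe sets passed in place of 125 and 0 of the 12 collagen probe sets (Col5a3 1.21, adjusted p = 0.166), 0 probe set ratios and 0 chain ratios. The exact sign test of 5 pairs cannot go below 0.0625.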
